A study of Homo sapiens and Mus musculus with 29 samples.

Results

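Immediate early genes are the first genes a cell transcribes after a growth factor, stress or injury signal, within minutes and without the need for new protein. The MAPK pathway drives many of them through serum response factor, which binds the CArG box, and through factors of the CREB and ATF family, and their mRNAs are short-lived. The FOS and JUN proteins pair to form AP-1, a transcription factor active in many epithelial cancers, among them pancreatic ductal adenocarcinoma (PDAC). The 10 genes followed here were chosen by symbol: FOS, FOSB, FOSL1 and FOSL2 of the FOS family, JUN, JUNB and JUND of the JUN family, EGR1, a zinc finger factor, ATF3, a stress-induced partner of JUN proteins, and IER2, a nuclear protein induced with them. All 10 were found among the 58719 gene IDs of the human table, and all 10 mouse orthologs among the 54446 of the mouse table.

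RNA-seq data of 29 samples were used. HPAF-II, an established human PDAC cell line of the classical subtype, was grown in the pancreas of NSG mice, which lack functional lymphocytes, and 21 samples from 15 mice were sequenced. There were 3 Control tumors (Cas-9-EV, an empty vector with Cas9), 4 HNF4G-KO tumors and 2 HNF4G-KO metastases, 3 FOXA1-OE tumors (lentiviral overexpression), and 5 tumors and 4 metastases of cells that carried HNF4G-KO and FOXA1-OE together. The other 8 were cell lines from KPC mice, an autochthonous model of PDAC, with 4 libraries of a primary tumor line and 4 of the matched liver metastasis line. The knockout cells were a pool of 3 clones with frameshift mutations, so clonal differences and the knockout cannot be told apart, and no metastases were sequenced from Control or FOXA1-OE mice. Tumors 2 and 3 of the HNF4G-KO + FOXA1-OE group came from the same mouse, and 4 mice gave both a tumor and a metastasis. Before any test, log2 values were averaged where a mouse gave several tumors or several metastases.

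HNF4G mRNA ranged from 2.48 to 3.47 RPKM in Control tumors and from 5.72 to 8.42 RPKM in HNF4G-KO tumors, so the mRNA was higher under the knockout label. A frameshift need not lower mRNA, no protein was measured here, and directions below are those of the tumors labeled HNF4G-KO. FOXA1 mRNA was at 0.519 to 0.932 RPKM in Control tumors and at 0.763 to 8.18 RPKM in FOXA1-OE tumors, of which tumor 3 held the lowest value. Epithelial markers were high in all HPAF-II samples, with a summed level of 2919 to 5387 RPKM over 7 genes. The 9 fibroblast markers, whose reads can come from the host, summed to 35.8 to 413 RPKM and the 9 blood and immune markers to 2.71 to 11.5 RPKM. Mitochondrial tRNA transcripts stood apart in FOXA1-OE tumor 3 and in tumors 4 and 5 of the HNF4G-KO + FOXA1-OE group, at 69500 to 130226 RPKM against at most 31985 RPKM in the other samples. Depth, read from the finest steps between RPKM values, was 33.1 to 69.6 M reads per HPAF-II library and 30.1 to 44.4 M per KPC library, or 16.6 to 34.8 M and 15.05 to 22.2 M where the commonest step stands for a read. On the latter scale ATF3 rested on 130 to 1493 reads per HPAF-II library and FOSB on 50.5 to 311.5. In bulk tumor RNA, fewer cells that express a gene and less of its mRNA per cell cannot be told apart.

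RefSeq held the promoter of 9 of the 10 genes in GRCh38.p14, all but FOSL1, as a window of 250 bases before to 50 bases after the start. The 150 bases before the start are shown for the 3 members with the largest swings between KPC libraries (FOS, FOSB and EGR1) and for JUN, at chr14:75278678-75278827 (plus strand), chr19:45467846-45467995 (plus), chr5:138465329-138465478 (plus) and chr1:58784048-58784197 (minus). They are written 5′ to 3′, and capitals mark matches on either strand to TGACGT, the core of the CREB and ATF site, to the CArG box, or to TGACATCA, an AP-1 and ATF site known from the JUN promoter. TGACGT overlaps itself on the other strand where the full site TGACGTCA stands.
FOS: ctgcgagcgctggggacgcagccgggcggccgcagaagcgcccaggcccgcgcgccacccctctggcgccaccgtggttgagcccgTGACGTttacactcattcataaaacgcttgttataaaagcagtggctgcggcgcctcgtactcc
FOSB: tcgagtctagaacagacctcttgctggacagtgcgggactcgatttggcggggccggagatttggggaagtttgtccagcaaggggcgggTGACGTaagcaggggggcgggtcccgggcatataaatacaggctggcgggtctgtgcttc
EGR1: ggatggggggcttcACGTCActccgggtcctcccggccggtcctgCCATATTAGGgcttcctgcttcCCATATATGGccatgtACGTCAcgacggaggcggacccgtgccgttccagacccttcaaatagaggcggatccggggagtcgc
JUN: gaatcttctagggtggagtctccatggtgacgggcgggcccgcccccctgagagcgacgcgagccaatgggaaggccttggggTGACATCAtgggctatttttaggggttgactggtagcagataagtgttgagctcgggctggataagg
TGACGT stood in the windows of FOS, FOSB, FOSL2, JUND and EGR1, 5 of 9 members, and in 7.98% of all 35116 windows. In FOS and FOSB it lay 64 and 60 bases before the start. A perfect CArG box was in 1.29% of all windows and, among the members' windows, in that of EGR1 alone. It held a pair of them between 105 and 74 bases before the start. Sites more than 250 bases before the start were not searched, for FOS or any other gene. TGACATCA was in JUN and ATF3 and in 2.61% of all windows. TGACTCA, the site AP-1 itself binds, stood in 4.95% of all windows and among the members in FOSL2 only, just after the start. GCGTGGGCG, the EGR1 site, was in none of the 9 and in 0.795% of all windows. JUNB and IER2 held none of these letters in their windows.

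Levels of the members spanned a wide range in HPAF-II samples on the RPKM scale, which divides by gene length. The median over 21 samples was 162 RPKM for JUND and 133 RPKM for JUNB, 51.1 RPKM for FOSL1, 37.1 RPKM for JUN and 32.9 RPKM for FOS. It was 22.2 RPKM for EGR1, 17.0 RPKM for FOSL2, 16.0 RPKM for IER2 and 4.49 RPKM for ATF3. FOSB came last at 0.815 RPKM, below the mean of 1 RPKM asked of a tested gene, so 9 of the 10 members were tested. Each gene overlapped its neighbor in this order over the 21 samples, for example JUND (108 to 311 RPKM) and JUNB (89.6 to 246.5 RPKM). The ratio of the highest to the lowest sample was 7.97 for ATF3, 7.26 for EGR1 and 6.71 for FOS, and only 2.35 for FOSL2. Within the FOS family, FOS thus had the widest and FOSL2 the narrowest range.

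**Figure D1:**
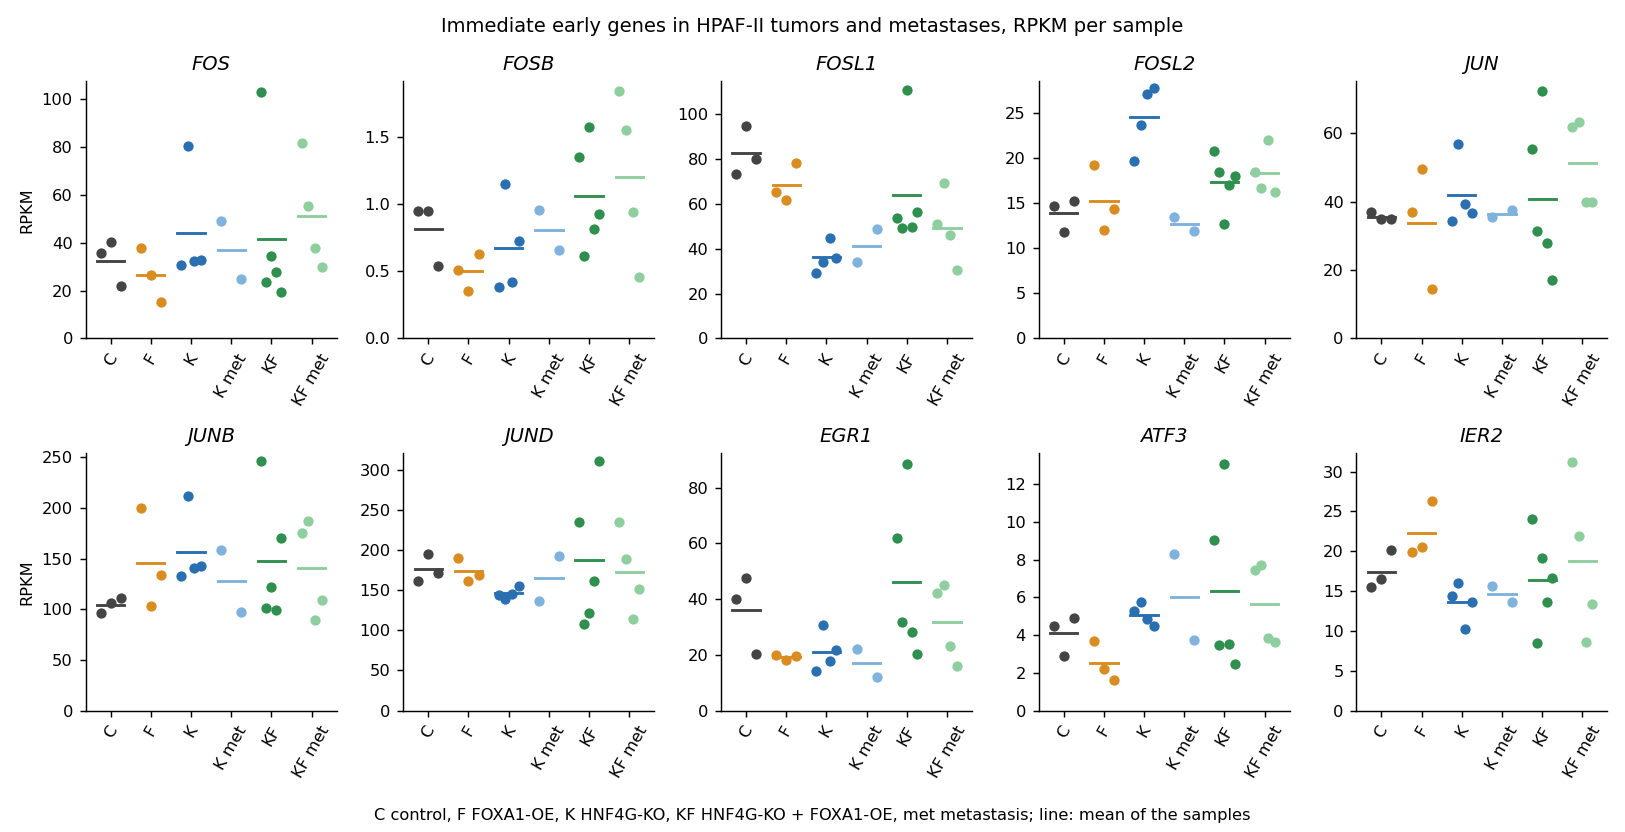
RPKM of the 10 genes in each HPAF-II sample, by group. Each point is a sample. By the median over samples, JUND and JUNB have the highest RPKM and FOSB the lowest. FOSL1 is lower in the 4 HNF4G-KO tumors than in the 3 Control tumors.

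The first question was whether the HNF4G-KO label moved these genes in primary tumors. FOSL1, a FOS family member long tied to invasive epithelial cancers, fell, and FOSL2, a related member with partly overlapping dimer partners, rose. No other member passed the test. FOSL1 (ENSG00000175592.8, GRCh38 chr11:65892049-65900573, minus strand) was at 73.2, 94.7 and 79.9 RPKM in Control tumors and at 29.3, 34.3, 44.9 and 36.1 RPKM in HNF4G-KO tumors. The groups were far from touching, the highest HNF4G-KO tumor being well under the lowest Control tumor. FOSL1 fell by 1.18 on the log2(RPKM + 1) scale (standard error 0.19, limma adjusted p = 0.00307). Its means were 82.6 ± 11.003 RPKM (SD, n = 3) in Control and 36.1 ± 6.49 RPKM (SD, n = 4) in HNF4G-KO tumors. FOSL2 (ENSG00000075426.11, chr2:28392448-28417317, plus strand) was at 14.7, 11.8 and 15.2 RPKM in Control tumors and at 19.7, 23.6, 27.1 and 27.7 RPKM in HNF4G-KO tumors. Again every HNF4G-KO tumor lay on the same side of every Control tumor. FOSL2 rose by 0.77 (standard error 0.18, limma adjusted p = 0.0191), with means of 13.9 ± 1.84 RPKM (SD, n = 3) and 24.5 ± 3.70 RPKM (SD, n = 4).

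These 2 of 9 tested members compare with 12.2% of all 14269 genes called in this comparison (1736 genes). The FOSL1 call held under all 24 alternatives, with a log2 difference between -1.29 and -1.08. The FOSL2 call was lost without Control tumor 2 (limma adjusted p = 0.107), without HNF4G-KO tumor 3 (0.0591) and without HNF4G-KO tumor 4 (0.0578), and this p over all 24 alternatives ranged from 0.00481 to 0.107. Control tumor 2 held the most pancreas marker RNA of all HPAF-II samples. The pancreas list, whose reads can come from the host, summed to 430 RPKM there, against 10.2 and 4.51 RPKM in Control tumors 1 and 3. Whether this bears on the calls was not tested. Fibroblast markers summed to 58.7 to 196 RPKM in Control tumors and to 50.9 to 72.6 RPKM in HNF4G-KO tumors. With the fibroblast list as a covariate both members were called, in a fit that called 25.1% of all genes (3583 genes). Whether host stroma bears on the calls was not tested further.

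**Figure D2:**
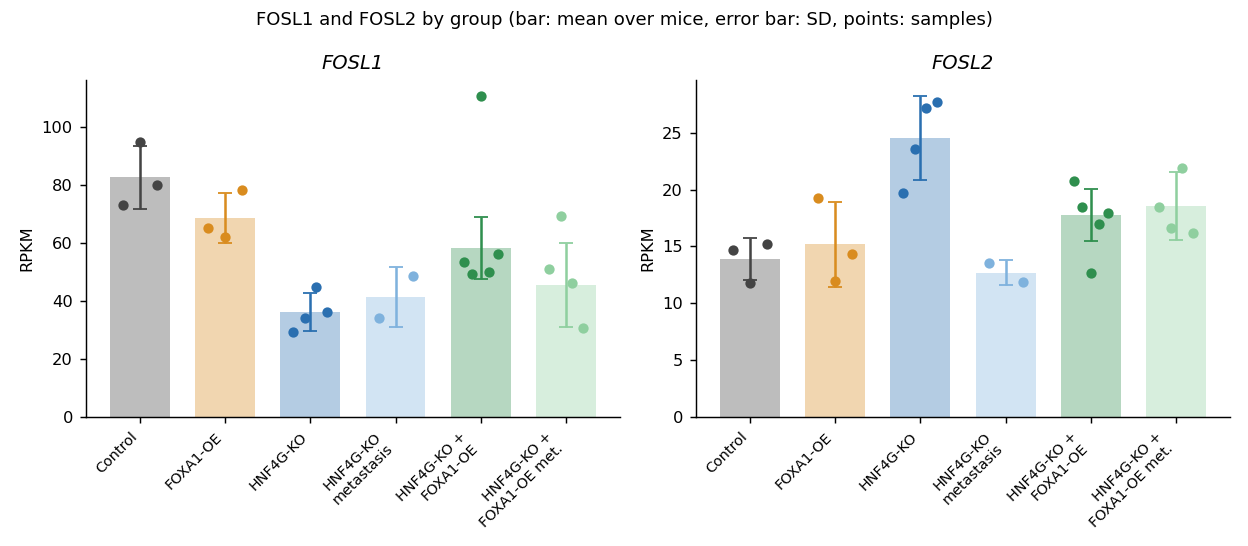
FOSL1 and FOSL2 in RPKM by group, on axes that start at 0; bars are means over mice, error bars the SD over mice and points the samples. FOSL1 stands at 82.6 RPKM in Control tumors and 36.1 RPKM in HNF4G-KO tumors, while FOSL2 stands at 13.9 and 24.5 RPKM.

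Among the JUN genes, JUNB was at 96.2, 106 and 112 RPKM in Control tumors and at 133, 212, 140 and 143 RPKM in HNF4G-KO tumors. JUND, which is expressed in most resting cells, was at 161, 195 and 171 RPKM against 145, 139, 146 and 155 RPKM. Neither gene overlapped between the groups, yet neither passed limma's test (log2 differences of 0.56, adjusted p = 0.237, and -0.26, adjusted p = 0.525). With FOSL1 and FOSL2 this made 4 of 10 members without overlap, and 46.4% of all genes tested did not overlap. For each of the 4 the two-sided exact permutation test gave p = 0.0286, which is the lowest possible with 4 and 3 tumors. JUN itself was at 34.9 to 36.8 RPKM in Control tumors and at 34.5 to 56.7 RPKM in HNF4G-KO tumors (log2 difference 0.20, limma adjusted p = 0.765).

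FOS was at 35.6, 40.1 and 22.01 RPKM in Control tumors and at 30.6, 80.3, 32.4 and 32.9 RPKM in HNF4G-KO tumors, where tumor 2 alone was high. Its log2 difference of 0.34 had a standard error of 0.50 (limma adjusted p = 0.678). EGR1 was at 40.1, 47.5 and 20.4 RPKM in Control tumors and at 14.1, 30.8, 17.8 and 21.7 RPKM in HNF4G-KO tumors, and the groups overlapped through Control tumor 3. The log2 difference of EGR1 was -0.72 (standard error 0.38, limma adjusted p = 0.216). FOSB, ATF3 and IER2 overlapped too, with log2 differences of -0.13, 0.28 and -0.34, none of which passed. For FOSB this comes from the fit without the RPKM filter (limma adjusted p = 0.803), and no comparison of HPAF-II samples called FOSB in that fit.

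Other genes of the pathway were followed in the same comparison, in lists drawn up with earlier results known, and 12.2% of all genes tested is again the share to read them against. Of 18 tested among 25 other immediate early genes, none rose and 2 fell: CCN1, a secreted matrix protein, fell by 1.82 (limma adjusted p = 0.00854) and RHOB, a small GTPase, fell by 0.86 (0.0308). Of 12 bZIP partners, 1 rose (ATF7, 0.49, limma adjusted p = 0.023), and of 17 upstream MAPK and SRF genes, 1 rose (MRTFB, an SRF coactivator, 0.56, adjusted p = 0.0367). Of 12 MAPK feedback genes, ETV5 fell by 0.85 (limma adjusted p = 0.0386). None of 13 AP-1 target genes and none of 10 heat shock and stress genes was called. The median log2 difference was -0.06 for the other immediate early genes, -0.18 for AP-1 targets and -0.32 for heat shock genes, beside 0.01 over all genes tested.

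FOXA1-OE without the HNF4G-KO label called no member, and 0% of all genes tested (0 of 14269, with 652 at an unadjusted p under 0.05). EGR1 was at 19.8, 18.1 and 19.7 RPKM in FOXA1-OE tumors, all just under the lowest Control tumor at 20.4 RPKM. It was the 1 member of 10 without overlap, beside 9.25% of all genes tested. Its log2 difference was -0.79 (standard error 0.40, limma adjusted p = 0.84, exact permutation p = 0.1, the smallest that 3 against 3 tumors allow). FOSL1 was at 65.3, 61.9 and 78.3 RPKM, which overlapped the Control tumors (log2 difference -0.27, limma adjusted p = 0.84). FOS and JUN were both lowest in FOXA1-OE tumor 3, at 15.4 and 14.4 RPKM, against at most 37.8 and 49.6 RPKM in the other FOXA1-OE tumors. That tumor is among the 3 with high mitochondrial tRNA, and without these 3 the log2 differences of FOS and JUN were 0.01 and 0.26, in place of -0.32 and -0.24.

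With FOXA1-OE added to HNF4G-KO, the mean of FOSL1 lay between those of HNF4G-KO and Control tumors, with values that overlapped the Control tumors. The 5 HNF4G-KO + FOXA1-OE tumors had FOSL1 at 53.6, 49.2, 111, 49.9 and 56.2 RPKM, and tumor 3 was far above the others. By mouse the mean was 58.4 ± 10.6 RPKM (SD, n = 4), and all 4 mice exceeded all 4 HNF4G-KO mice. The log2 difference from HNF4G-KO tumors was 0.68 (standard error 0.17, unadjusted p = 0.00162, limma adjusted p = 0.196, exact permutation p = 0.0286, again the smallest possible). In this comparison limma called none of the 9 members and 0.0561% of all genes tested (8 genes). FOSL1 was the 1 member of 10 without overlap, beside 15.2% of all genes tested. FOSL2, at 20.7, 18.4, 12.7, 17.0 and 17.9 RPKM, differed from HNF4G-KO tumors by -0.44 (limma adjusted p = 0.213) and EGR1, at 62.04, 31.7, 88.6, 28.1 and 20.2 RPKM, by 0.84 (0.222).

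Against Control tumors, which also served in the HNF4G-KO comparison, the HNF4G-KO + FOXA1-OE tumors had no called member and 4.7% of all genes called. FOSL1 differed by -0.50 (standard error 0.19, limma adjusted p = 0.157) and FOSL2 by 0.33 (0.351). Of 18 other immediate early genes tested 2 fell, CCN1 by 1.68 (limma adjusted p = 0.0164) and GADD45B, a stress-induced growth arrest gene, by 1.05 (0.0412). Of 12 MAPK feedback genes ETV5, an ETS factor induced by ERK signaling, fell by 1.11 (0.0208). Without the 3 tumors of high mitochondrial tRNA, ATF3 passed with a log2 difference of 0.83 (limma adjusted p = 0.0272), as did 14.2% of all genes (1981 genes).

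Against FOXA1-OE tumors no member was called either, while 7.86% of all genes tested were. EGR1 differed by 0.92 (standard error 0.38, limma adjusted p = 0.157) and ATF3 by 0.81 (standard error 0.32, adjusted p = 0.139). ATF3 was at 9.03, 3.45, 13.1, 3.54 and 2.46 RPKM in the 5 HNF4G-KO + FOXA1-OE tumors and at 3.67, 2.19 and 1.64 RPKM in FOXA1-OE tumors, so the 3 lowest of the former lay within the latter. Whether these genes were called depended on which tumors were kept and, for ATF3, also on the model fitted. Without HNF4G-KO + FOXA1-OE tumor 5, EGR1 passed at 1.20 (limma adjusted p = 0.048) and ATF3 at 1.07 (0.0322), and without the 3 tumors of high mitochondrial tRNA at 1.55 (0.0216) and 1.21 (0.00737). These fits called 10.2% and 14.1% of all genes tested (1439 and 1978 genes). Among the 18 other immediate early genes, KLF6, a zinc finger factor, rose by 1.14 (limma adjusted p = 0.0157) and GADD45B fell by 1.00 (0.0382). Among 12 MAPK feedback genes, SPRY1, an inhibitor of receptor tyrosine kinase signaling, and ETV5 fell by 0.90 and 1.53 (limma adjusted p = 0.0379 and 0.00263), and of 12 bZIP partners BATF2 rose by 1.30 (0.0138). No gene of these lists was called in the other 7 comparisons.

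Whether FOXA1-OE acted differently with and without the HNF4G-KO label was tested as an interaction. It called no member and 0.035% of all genes tested (5 genes). EGR1 had the largest value of the members, 1.63 (standard error 0.53, unadjusted p = 0.0087, limma adjusted p = 0.437). It came from log2 differences of -0.79 for FOXA1-OE against Control and 0.84 for FOXA1-OE on top of HNF4G-KO. FOSL1 followed with 0.94 (standard error 0.26, unadjusted p = 0.00319, limma adjusted p = 0.396).

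Metastases and primary tumors were compared within the knockout groups. FOSL2 was lower in HNF4G-KO metastases, at 13.5 and 11.9 RPKM, than in any of the 4 HNF4G-KO tumors (19.7 to 27.7 RPKM). The share of all genes without overlap was not counted for 2 against 4 samples. FOSL2 dropped within both mice that gave a tumor and a metastasis, from 23.6 to 13.5 RPKM and from 27.7 to 11.9 RPKM. The log2 difference was -0.89 (standard error 0.19, unadjusted p = 0.000485, limma adjusted p = 0.157), and with the mouse as a replicate block FOSL2 passed, at -0.91 (limma adjusted p = 0.0404), in a fit that called 0.546% of all genes (77 genes). Without the block, the other alternatives gave an adjusted limma p of 0.0812 to 0.477. The exact permutation p was 0.0667, the smallest that 2 against 4 samples allow. Both metastases came from mice whose tumors are among the 4, and neither this permutation nor the fit without the block takes that into account. Without the block no member was called and 0.0426% of all genes were. Metastasis 2 held the most fibroblast marker RNA of all samples, 413 RPKM, against 76.5 RPKM in metastasis 1, and with the fibroblast list as a covariate the difference was -0.74 (limma adjusted p = 0.174). Mitochondrial genes took 11.6% and 11.8% of the reads in these metastases against 5.73% to 8.27% in the tumors, and mitochondrial tRNA was at 10036 and 29006 RPKM against 4027 to 9426 RPKM. With mitochondrial reads left out of the totals the FOSL2 difference was -0.82 (limma adjusted p = 0.168).

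In HNF4G-KO + FOXA1-OE metastases FOXA1 mRNA ranged from 0.535 to 17.9 RPKM with a median of 1.43 RPKM, against 4.65 to 23.1 RPKM in the tumors of that group, so the lowest lay within the Control range. FOSL2 was at 18.5, 16.6, 21.9 and 16.2 RPKM in these metastases, against 12.7 to 20.7 RPKM in the tumors. Here no member was called, and 0.00709% of all genes tested (1 gene). FOSL1 was at 51.1, 69.3, 46.2 and 30.6 RPKM in these metastases (log2 difference -0.39, limma adjusted p = 0.569). Averaged over both genotypes, no member was called and 0.135% of all genes were. FOSL2 differed by -0.41 (limma adjusted p = 0.343), and the mean log2 differences of FOS, ATF3 and IER2 were 0.02, 0.04 and -0.02.

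Within groups, the members did not vary as a single block. Deviations from group means were compared over the 14 mice with primary tumors. The spread was widest for FOS, with a pooled within-group SD of 0.75 on the log2 scale, above 96.9% of genes tested. JUN (0.60), EGR1 (0.55) and ATF3 (0.46) followed, at the 92.4, 90.0 and 82.2 percentiles. FOSL1 and FOSL2, the 2 genes called between groups, had SDs over mice of 0.22 and 0.23, below the median of 0.29 over all genes tested. A small spread within groups itself favors such a call. For FOSL1 the SD follows the averaging of 2 tumors of the same mouse, at 49.2 and 111 RPKM. JUNB, JUND and IER2 stood between, at 0.43, 0.35 and 0.28.

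The median Pearson r over the 36 pairs of tested members was 0.253, from -0.371 to 0.763, with 26 pairs above 0. Over all pairs of genes tested the median was 0.065. An r of at least 0.7 was reached by 3 of the 36 pairs (8.33%) and by 9.77% of all pairs of genes, so strong pairs were no more common among the members than elsewhere. After adjustment over the 36 pairs no Pearson r passed the threshold, and 7 had an unadjusted p under 0.05 (two-sided permutation within groups, 20736 permutations). The median rested on the mouse of HNF4G-KO + FOXA1-OE tumor 1, and was 0.018 without it and 0.090 without it and the mouse of tumors 2 and 3. Leaving out any other mouse gave medians of up to 0.324, and leaving out mitochondrial reads from the totals gave 0.145.

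**Figure D3:**
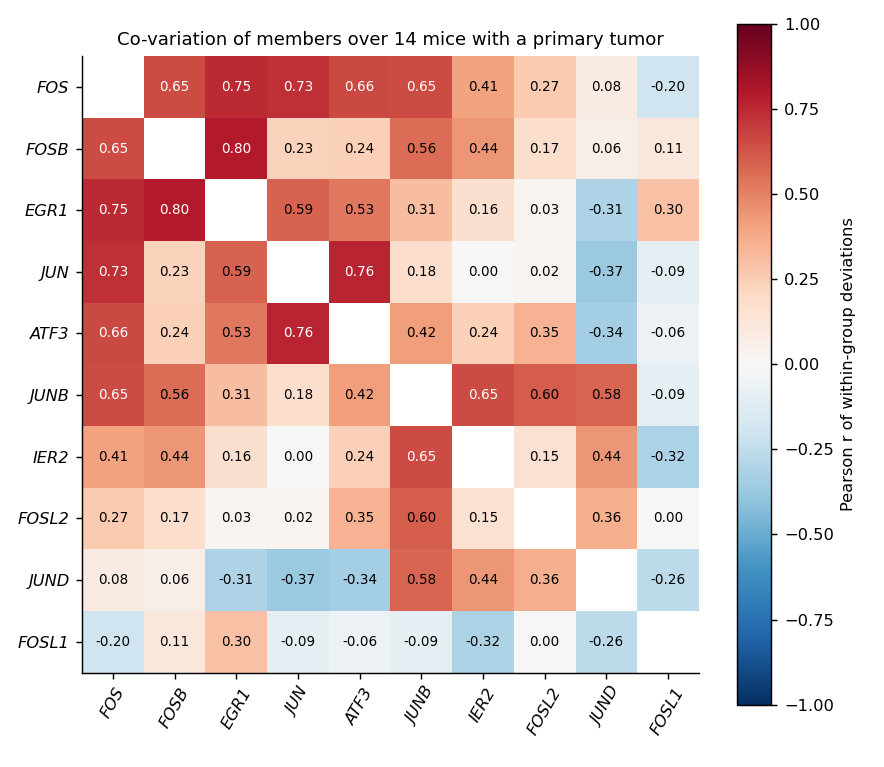
Pearson r of within-group deviations for each pair of members over 14 mice, as a colored matrix. FOS, JUN, EGR1 and ATF3 form a patch of positive values, FOSL1 is near or below 0 against most members, and JUND is below 0 against JUN, EGR1 and ATF3.

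Among the 36 pairs, the highest values were those of JUN with ATF3, FOS with EGR1 and FOS with JUN. FOS and EGR1, both classical targets of serum response factor, had a Pearson r of 0.75 (permutation p = 0.00169, adjusted p = 0.0608) and a Spearman rho of 0.793 (p = 0.000482, adjusted p = 0.0174). Without the 2 mice farthest from the median of FOS, r was 0.598, and leaving out each mouse in turn gave 0.667 to 0.859. By r, EGR1 ranked 233 among all genes against FOS, and FOS ranked 71 against EGR1. FOS and JUN, the archetypal AP-1 pair, had an r of 0.734 (permutation p = 0.0102, adjusted p = 0.17, rho 0.719), and 0.678 without 2 mice. JUN and ATF3, whose products can pair, had the highest r, 0.763 (permutation p = 0.039, adjusted p = 0.244, rho 0.745), and 0.62 without 2 mice. FOS and JUNB reached 0.651, but 0.211 without 2 mice, so this relation rested on those mice. FOSB, at few reads, followed EGR1 with an r of 0.797 (permutation p = 0.00106, adjusted over its 9 pairs 0.00955, rho 0.811), and 0.765 without 2 mice. Its r with FOS was 0.654 (permutation p = 0.0163, adjusted p = 0.0736).

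FOSL1 and JUND followed the other members least. Against the mean of the other members, r was 0.798 for FOS and 0.786 for JUNB, between 0.378 and 0.648 for FOSB, ATF3, EGR1, JUN, FOSL2 and IER2, and only 0.038 for JUND and -0.14 for FOSL1. FOSL1 and FOS had an r of -0.196 (permutation p = 0.586), and FOSL1 and FOSL2 an r of 0.001. JUND correlated with JUNB at 0.584 (permutation p = 0.22) and with JUN at -0.371.

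**Figure D4:**
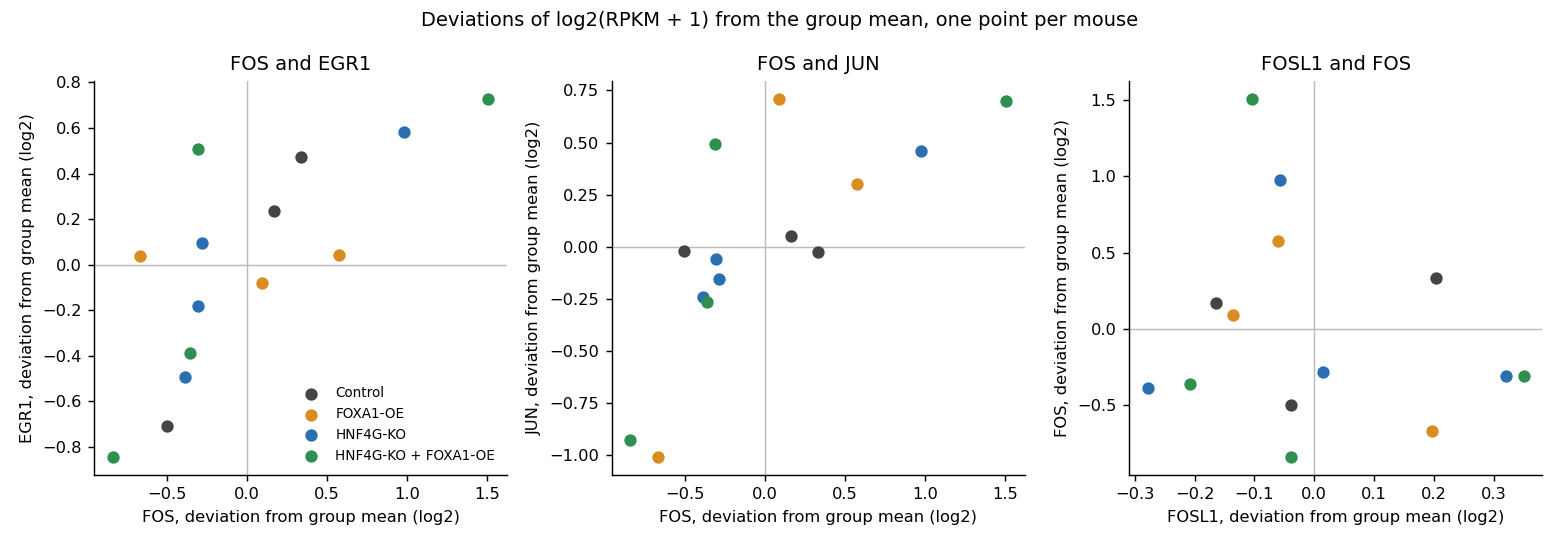
Within-group deviations of log2(RPKM + 1) for EGR1, JUN and FOSL1 against FOS; each point is a mouse, colored by group. EGR1 and JUN rise with FOS (r of 0.75 and 0.734), and FOSL1 shows no slope (r of -0.196).

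Some mice stood above or below their group in most members. In HNF4G-KO + FOXA1-OE tumor 1, 8 of 9 members were above their group mean, by 1.23 SD on average, with FOS at 103 RPKM. HNF4G-KO tumor 2 followed, with 6 of 9 above and a mean of 0.52 SD, and FOXA1-OE tumor 1 with 7 of 9 and 0.52 SD. The mouse of HNF4G-KO + FOXA1-OE tumor 4 was lowest, with 0 of 9 above and a mean of -0.72 SD. That tumor held the most mitochondrial tRNA of all samples, 130226 RPKM, at a depth of 35.3 M reads by the finest steps. How many of all genes lay above their group mean in each mouse was not counted. High levels recurred in the other samples of the first mouse, whose tumor, spleen metastasis and metastasis labeled peri mets in fat had FOS at 103, 81.6 and 55.5 RPKM, EGR1 at 62.04, 42.3 and 45.1 RPKM and JUN at 55.2, 61.9 and 63.2 RPKM. The 2 tumors of another mouse differed instead, with EGR1 at 31.7 and 88.6 RPKM, ATF3 at 3.45 and 13.1 RPKM, JUN at 31.4 and 72.3 RPKM and FOSL1 at 49.2 and 111 RPKM, while FOS differed less (23.8 and 34.3 RPKM).

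The genes most like the members' mean over the 14 mice, by Pearson r as a description, were ITGB1-DT (0.944), FAHD2P1 (0.933), DUSP1 (0.932), PROSER2 (0.924), CSRNP1 (0.919), BHLHE40 (0.881), TSPAN5 (0.88), CCDC71L (0.879), SMIM3 (0.878) and PTPRR (0.876). DUSP1 and CSRNP1 are immediate early genes of their own right, the former a phosphatase of MAP kinases. Of the 18 other immediate early genes tested, 8 (44.4%) had an r of at least 0.7, against 1.94% of the 14260 genes tested outside the members. They were DUSP1, CSRNP1, NFKBIZ, PPP1R15A, KLF6, KLF4, BTG2 and MAFF. The MAPK feedback genes DUSP5 (0.876), DUSP6 (0.78) and ERRFI1 (0.707) were 3 of 12, and the AP-1 targets PLAUR (0.793) and MMP10 (0.765) 2 of 13. Others of these lists went the other way, with ETV5 at -0.494 and ETV4 at -0.388, and CCND1 lowest of the AP-1 targets at -0.602. Of 12 bZIP partners and 17 upstream MAPK and SRF genes 0 reached 0.7, and of 7 epithelial markers 1 did (14.3%). No heat shock gene reached 0.7, with a median of -0.006, and the median of the 5 fibroblast markers tested was -0.232. All these r include the mouse of HNF4G-KO + FOXA1-OE tumor 1, the farthest out in the members' mean at 1.23 SD. Values without that mouse are not given here.

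In the KPC cell lines, several immediate early genes, most of all Egr1, Fos and Fosb, were set apart by replicate number. Replicates 1 and 2 of both lines held many of these mRNAs at high levels and replicates 3 and 4 at low levels, a split known from earlier results and given here as a description with no test. The difference between the lines also turned with the replicate number. Over all 12585 genes tested, the metastasis minus tumor line difference in replicates 1 and 2 had a Pearson r of -0.815 with that in replicates 3 and 4, given as a description across genes, and 76.9% of genes had opposite signs. Whether the line labels of one pair are exchanged was not tested, and every difference between the lines below follows the labels. The replicate split of Egr1 and Fos was nearly equal in both lines (5.40 and 5.44 for Egr1, 5.17 and 5.22 for Fos, tumor line first). Egr1 was at 209 and 194 RPKM in replicates 1 and 2 of the tumor line, and its values in the metastasis line were 224 and 154 RPKM. In replicates 3 and 4 it was at 4.66, 3.05, 3.90 and 2.78 RPKM. The difference was 5.42 on the log2(RPKM + 1) scale, the highest of all 12585 genes tested.

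Fos ranked 2, with a difference of 5.19. It was at 202 and 79.8 RPKM (tumor line) and 211 and 124 RPKM (metastasis line) in replicates 1 and 2, and at 2.90, 2.23, 3.46 and 3.30 RPKM in replicates 3 and 4. Fosb ranked 3 with 4.62, and was at 178 and 14.1 RPKM (tumor line) and 262.1 and 26.3 RPKM (metastasis line) against 1.13 to 2.27 RPKM. Replicate 1 of each line was thus far above replicate 2 for Fosb. Ier2 ranked 7 with 2.62, at 142 to 173 RPKM against 16.9 to 29.3 RPKM. Atf3 ranked 10 with 2.28 (1.33 in the tumor line and 3.23 in the metastasis line), yet its libraries overlapped, since replicate 2 of the tumor line was at 6.69 RPKM and replicate 3 at 11.9 RPKM.

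A difference of at least 1 on the log2 scale in both lines was seen for 5 of 10 members and for 0.191% of all genes tested (24 genes), with 12 genes at least as far in the other direction. Another 8 of 23 immediate early genes were among the 24 (Ccn1, Zfp36, Dusp1, Nr4a1, Egr2, Arc, Egr3 and Btg2), and so was the MAPK feedback gene Dusp5. No AP-1 target, heat shock or upstream MAPK gene was. The remaining members differed less: Junb by 1.30, Jun by 1.20 (0.23 in the tumor line and 2.17 in the metastasis line), Fosl1 by 0.57, Jund by 0.45 and Fosl2 by 0.25. Fosl1 ranged from 30.4 to 69.4 RPKM over all 8 libraries, and Jund from 35.3 to 88.1 RPKM.

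**Figure D5:**
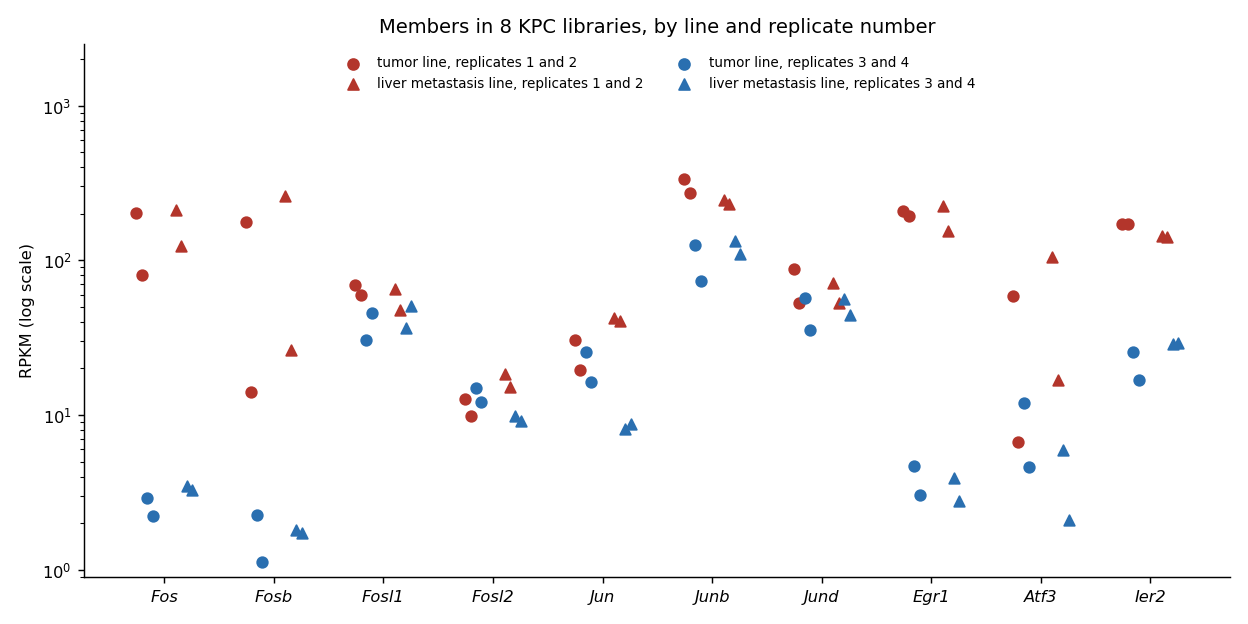
RPKM of the mouse orthologs in the 8 KPC libraries on a log axis, by line and replicate number. On the RPKM + 1 scale Egr1, Fos and Fosb are 42.8, 36.6 and 24.5 times higher in replicates 1 and 2 than in replicates 3 and 4, and Fosl1, Fosl2 and Jund lie close together.

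Between the lines no member was called, and 0% of all genes tested (0 of 12585, with 109 at an unadjusted p under 0.05). Differences that turn with the replicate number cancel when replicates are averaged, so this result cannot show that the lines are alike. The sign of the difference was opposite in the 2 replicate pairs for 76.9% of all genes tested, the share to read the members against. For 3 members the metastasis line was above the tumor line in replicates 1 and 2 and below it in replicates 3 and 4. Jun had mean log2 differences of 0.74 and -1.20, Atf3 of 1.02 and -0.88 and Fosl2 of 0.55 and -0.46. Another 4 went the other way, Junb with -0.34 and 0.33, Ier2 with -0.27 and 0.46, Fosl1 with -0.20 and 0.20 and Jund with -0.16 and 0.16. Fos (0.35 and 0.30), Fosb (0.71 and 0.07) and Egr1 (-0.12 and -0.15) had values of like sign in both pairs. From replicates 1 and 2 alone, Fosl2 and Ier2 were called (log2 differences of 0.55 and -0.27, limma adjusted p = 0.0497 and 0.025), 2 of 10 members beside 25.5% of all genes tested in that fit (3174 genes). From replicates 3 and 4 alone no member and 0.635% of all genes were called. The labels give the KPC replicates no culture or date, so the p-values measure only the spread between these libraries.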

How the data were processed

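RNA was sequenced as stranded mRNA libraries from tumors, metastases and cell lines. Per the labels and methods, the authors ran STAR on the reads, and the table they deposited for each species holds RPKM, that is, reads divided by gene length and library total. The submitters' processing notes name STAR 2.6.1a and featureCounts 2.0.4 with GRCh38 and GRCm38, while the methods name GRCh37 for human reads. RPKM cannot enter the read count model those methods describe. Here log2(RPKM + 1) was fitted in R 4.3.3 by limma 3.58.1, using lmFit and a trended eBayes, for genes that averaged 1 RPKM or more. Benjamini-Hochberg adjustment ran over all genes tested, at a threshold of 0.05. The 4 groups of primary tumors shared a fit, and metastases and KPC lines had their own, which gave 10 comparisons. Differences of single genes were also tested with a two-sided exact permutation test, and correlations of within-group deviations by permutation within groups. The scripts were tested on simulated data. Figures were drawn with Python 3.11.15 and matplotlib 3.10.9.

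The 10 members were all named. Of each pathway list every called gene was named, or the 5 of largest change where more were called, and with them the 10 genes most correlated with the members' mean. Members and lists were chosen with earlier results of these data known. Symbols and coordinates come from GENCODE 44 and M21 (58205 of 58719 and 54409 of 54446 IDs matched), and promoter sequences from RefSeq. The KPC table held 12 further columns of values that belong to no sample used here, and they were left out.

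Pairing of tumors with metastases follows the mouse given in the labels (correlation within mouse of 0.342 in limma), which was tried as a block. Other alternatives were a pseudocount of 0.1, no filter or a filter of 5 RPKM, samples shifted to the same median, a fibroblast covariate, fits of the compared groups alone, tumors of the same mouse kept separate, the replicate number as a block, KPC replicates in pairs, no spleen metastasis, and each sample or mouse left out. After the data were seen, fits without the 3 tumors of high mitochondrial tRNA, without 2 mice, and with mitochondrial reads out of the totals were added.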

Additional observations from a re-analysis of the deposited data

Results flagged for a closer look

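Of 50 sets of a gene in a group of 4 or 5 samples, 3 held a sample far from the rest, where chance alone gives about 1 in 20 sets. FOS was at 80.3 RPKM in HNF4G-KO tumor 2, and the next of the 4 tumors was at 32.9 RPKM. JUNB was at 212 RPKM in the same tumor, against 143 RPKM in the next. FOSL1 was at 111 RPKM in HNF4G-KO + FOXA1-OE tumor 3, with the next of the 5 tumors at 56.2 RPKM, among them the other tumor of the same mouse at 49.2 RPKM. No interaction of a member passed the test.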

How the results depend on the processing

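FOSL1 was called between HNF4G-KO and Control tumors in 24 of 24 alternatives and FOSL2 in 21, so that leaving out a tumor left 1 to 2 members called, and a fit of these groups alone added JUNB as a member called, 3 of 9 where it called 39.7% of all genes. Without the 3 tumors of highest mitochondrial tRNA, 1 member (ATF3) was called in HNF4G-KO + FOXA1-OE against Control and 2 (EGR1 and ATF3) against FOXA1-OE, beside 14.2% and 14.1% of all genes, and in the latter leaving out a tumor gave 0 to 2. From KPC replicates 1 and 2 alone 25.5% of all genes were called and 2 members, of which Ier2 reversed, at -0.27 (limma adjusted p = 0.025). The median within-group SD of the members fell from 0.43 to 0.296 without those 3 tumors and to 0.292 without the mice of HNF4G-KO + FOXA1-OE tumors 1 to 3. The causes were not tested. Over all members, comparisons and alternatives, 1767 differences kept their direction and side of the threshold, and 175 that were not called changed sign.

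The number of genes called varied far more than that of members. It ranged from 284 to 5595 for HNF4G-KO against Control, 0 to 3 for FOXA1-OE against Control, 0 to 154 for HNF4G-KO + FOXA1-OE against HNF4G-KO, 25 to 1981 against Control and 86 to 2414 against FOXA1-OE. It ranged from 0 to 119 for the interaction, 1 to 132, 0 to 213 and 0 to 57 for metastases, and 0 to 3174 for the KPC lines.

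Same-numbered tumors of different groups had correlations of -0.526 to 0.497 (median 0.016 over 19 pairs), so tumor numbers were not taken as pairs. Same-numbered KPC libraries of the tumor and metastasis lines had correlations of -0.412 to 0.209. Since the line difference turned with the replicate number, these KPC values cannot tell whether replicate numbers pair the libraries. With the tumor number as a replicate block, FOSL1 was at -1.13 (limma adjusted p = 0.0171), FOSL2 at 0.74 (0.0462), and 1 member (ATF3, 1.24, 0.0277) was called in HNF4G-KO + FOXA1-OE against FOXA1-OE, beside 16.9% of all genes. With the mouse as a block, 1 member (FOSL2) and 0.546% of all genes were called in HNF4G-KO metastases. FOSB averaged under 1 RPKM in the main HPAF-II fits. There limma tested it only in the fit without that filter and in some alternative fits of the metastases. None of these called it.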
